A study of Mus musculus with 12 samples.

Results

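The heme synthesis and red cell membrane genes are 30 mouse genes named by function: enzymes that build heme, carriers and proteins that supply or use it, and proteins of the red cell membrane and its skeleton, with carbonic anhydrases, sphingosine-phosphate genes and 2 genes of erythroid progenitors, Tspan33 and Trim10. The members were all probe sets that the platform annotation pairs with 1 of these genes. Of the 30 genes, 29 had a probe set of their own, Epb41 being the exception, and these genes held 52 of the 45101 probe sets on the array. A filter on low values kept 46 of the 52 probe sets and 28 genes, which were tested among 13732 genes in all. Alas2 failed the filter. Epb42, Rhag and Trim10 passed it only through the myeloid progenitor arrays.

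The data are 12 Affymetrix Mouse Genome 430 2.0 arrays of bone marrow cells sorted from pooled mice, in 4 groups of 3: wild-type LSK cells (arrays 1, 2 and 3), FoxO-deficient LSK cells (arrays 4, 5 and 6), wild-type myeloid progenitors (arrays 7, 8 and 9) and FoxO-deficient myeloid progenitors (arrays 10, 11 and 12). Mice of every group carried LoxP-flanked alleles of Foxo1, Foxo3 and Foxo4, and only those of the deficient groups also carried Mx-Cre. Mx-Cre is a recombinase driven by the interferon-inducible Mx promoter, which is active in many cells besides blood cells, so a FoxO effect below includes any effect of Mx-Cre itself. LSK cells are lineage-negative, Sca-1-positive, Kit-positive cells, the fraction that holds hematopoietic stem cells. Ages, induction and sorting gates are not given in the sources used here, and neither is whether the 3 arrays of a group were separate pools, so the p-values cover only array-to-array spread, which may be technical. The labels give the question as how loss of these factors alters transcripts of reactive oxygen metabolism in stem cells and myeloid progenitors, and the genes described here are not named in it.

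Heme is made in a chain of enzymes that begins in the mitochondrion with aminolevulinate synthase, runs through the cytosol and ends in the mitochondrion, where ferrochelatase inserts iron. Developing red cells make more heme than other cells, use an erythroid form of the first enzyme and put the heme into globin. Their membrane is held by a spectrin skeleton that ankyrin and protein 4.2 tie to the anion exchanger band 3, and it carries water channels, Rh proteins and blood group antigens. In bone marrow, progenitors committed to red cells arise among the myeloid progenitors, and the transcription factors Gata1 and Klf1 act on many genes of this programme.

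Values are normalized intensities, a linear brightness after quantile normalization, and a group value is the mean of its 3 log2 values, turned back to the linear scale. Fold changes are on the scale of log2(intensity + 0.6), errors are standard errors of the fit, and called genes have an adjusted p under 0.05 (limma, Benjamini-Hochberg over 13732 genes, two-sided). On each array a background limit was taken from bacterial control probe sets; it lay between 5.14 and 13. A fold is given as a bound, or not at all, where the dimmer group did not clear this limit. Intensities of different probe sets are not set against each other.

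The deposited intensities averaged between 118.9 and 190.2 on an array. The RNA of wild-type LSK array 2 was degraded by the measure of its Gapdh controls, 3165 near the 3′ end and 9.2 near the 5′ end of the transcript. This is a ratio of 344, against 1.77 to 2.37 on the other 11 arrays. The targeted gene Foxo4 read 347 to 479 on the wild-type LSK arrays and 67.2 to 100.2 on the deficient ones, and 309 to 349.8 and 59.1 to 61.3 in myeloid progenitors. Foxo4 was called lower in both cell types (limma, adjusted p = 0.00162 and 1.14e-04). Foxo1 read 53.8 to 265 and 18.9 to 39.2, then 14 to 38.7 and 9.99 to 15.7, which overlap. It was called in neither cell type (limma, adjusted p = 0.263 and 0.609). Foxo3 was not lower, at 2108 to 2715 and 2672 to 3011, then 1832 to 1913 and 2263 to 2574. In myeloid progenitors its deficient arrays all read above the wild-type ones, without a call (limma, adjusted p = 0.299). Whether its probe set lies in the deleted part was not checked. Lists of marker genes followed the cell labels, the summed LSK markers (6 of 8 tested) reading 4161 to 4902 on wild-type LSK arrays and 873 to 917 on wild-type myeloid progenitor arrays.

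Most members were brighter in myeloid progenitors than in LSK cells. In wild-type cells 22 of 28 were called higher and 0 lower, beside 9.95% of all tested genes called higher, 11.5% lower and 21.4% in either direction. Because 3 members passed the filter only through myeloid progenitor arrays, the count that the filter did not favour is 19 of 25. In FoxO-deficient cells 19 of 28 were called higher, beside 10.2% of all genes called higher, 9.39% lower and 19.6% in either direction, or 17 of 25 without the 3. Without wild-type LSK array 2 the counts were 21 higher in wild-type cells (17.8% of all genes) and 20 higher and 1 lower, Hba-a2, in deficient cells (21.5% higher and 15.7% lower). These comparisons share no arrays. Called higher in both were 18 of 28 members, or 16 of 25 without the 3, beside 5.89% of all genes. Ppox, Blvrb, Sptb and Epb42 passed in wild-type cells and Urod in deficient cells, but the difference between genotypes passed for none of them.

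Aqp1, the water channel of the red cell membrane, and Ermap were among the members that stood highest above LSK cells. It read 15.8, 6.18 and 19.8 on the wild-type LSK arrays and 576, 533 and 568 on the wild-type myeloid progenitor arrays, a 44.9-fold difference (log2 change 5.49 ± 0.36, adjusted p = 1.45e-05). Array 2 is its lowest LSK value, and without it the log2 change was 4.98, just under that of Rhd. Ermap, an erythroid membrane protein of the immunoglobulin superfamily that carries the Scianna blood group, read 58.2, 58.9 and 58.1 in LSK cells, against 1751, 1789 and 1694 in myeloid progenitors, a 29.9-fold difference (4.90 ± 0.21, adjusted p = 1.48e-06). No array of one group reached the other for either gene. Car1, the carbonic anhydrase I gene, read 184, 154 and 187 in LSK cells, against 3315, 3274 and 3448 in myeloid progenitors, 19.2-fold higher (4.26 ± 0.14, adjusted p = 4.84e-07).

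Mfsd2b, the sphingosine-phosphate exporter of red cells and platelets, read 30.4, 121 and 22.9 in wild-type LSK cells and 626, 617 and 660 in wild-type myeloid progenitors (14.5-fold, adjusted p = 5.27e-04). Its high LSK value is array 2, and its log2 change was 3.86 with that array and 4.58 without it. Blvrb, a biliverdin and flavin reductase of red cells, was 24.4-fold higher, with array 2 at 2.68 and the other LSK arrays at 16.7 and 30.1; without array 2 its log2 change was 3.6 in place of 4.61. Rhd, of the Rh blood group complex, was 21.7-fold higher, with a log2 change of 4.44, or 5.05 without array 2. Sphk1, a kinase that makes sphingosine phosphate, was 10.9-fold higher; its log2 change of 3.45 became 4.13 without array 2, and 2.65 without array 9, when it was not called (adjusted p = 0.0570). Rhag, the Rh-associated glycoprotein, read 9.05, 7.38 and 4.55 against 113, 139 and 105, and Kel, a membrane endopeptidase that carries the Kell blood group, 5.91, 9.37 and 13.6 against 101, 96.0 and 128. Both were called, and since 1 of the 3 LSK arrays cleared the background for each, no size of change is given. Trim10, a RING-finger gene of erythroid differentiation, was at least 3.07-fold higher than its LSK level at background, a call lost without array 1, 3, 7, 8 or 9 (adjusted p of up to 0.0864).

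All 7 tested heme enzymes had a positive log2 change from LSK cells to myeloid progenitors. In wild-type cells 6 were called: Cpox at 6.29-fold, Alas1 at 5.42-fold, Uros at 3.21-fold, Alad at 2.94-fold, Fech at 2.33-fold and Ppox at 1.77-fold. Alas1 read 16.8, 92.9 and 24.4 in wild-type LSK cells, with array 2 the high one; its log2 change was 2.44 with that array and 3.17 without it, and it lost its call without array 8 (adjusted p = 0.0515). Urod read 620, 1181 and 716 in LSK cells, against 1381, 1538 and 1109 in myeloid progenitors, groups that overlap (adjusted p = 0.0697, and 0.00338 without array 2). The same enzymes in deficient cells gave 8.46-fold for Alas1, 3.64-fold for Cpox, 3.08-fold for Uros, 2.23-fold for Fech, 1.78-fold for Urod and 1.63-fold for Alad, with Ppox not called at 1.12-fold (adjusted p = 0.580). The deficient-cell call of Urod was kept only without array 1 or 2 and otherwise had an adjusted p of up to 0.144 when 1 array was left out, and that of Alad was lost without array 4, 6, 10, 11 or 12 (up to 0.0717).

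Among the remaining called members, Ank1, the ankyrin of red cells, was 6.98-fold higher (log2 change 2.80, or 3.57 without array 2), Tspan33, a tetraspanin of erythroid progenitors, 5.07-fold, Icam4, the adhesion molecule of the Landsteiner-Wiener blood group, 3.6-fold, and Slc25a38, the mitochondrial glycine carrier of heme synthesis, 3.06-fold. The Slc25a38 call was kept only without array 2, 4 or 5 and otherwise had an adjusted p of up to 0.116 when 1 array was left out. Sptb, of beta spectrin, and Epb42, of protein 4.2, were called near background, and neither passed without array 2 (adjusted p = 0.0804 and 0.0583). Leaving out 1 array at a time, Sptb passed only without array 3 or 12, and Epb42 also failed without array 3, 8 or 9. The members not called included 3 bright ones. Tmod1, which caps actin filaments of the membrane skeleton, read 891 to 1225 in wild-type LSK cells and 919 to 989 in wild-type myeloid progenitors. Car2, of carbonic anhydrase II, read 1518 to 3592 and 3823 to 4325.5, with array 2 the low one. Slc25a37, the mitochondrial iron carrier mitoferrin, read 106 to 148 and 99.3 to 118. Slc4a1, of the band 3 anion exchanger, had the opposite sign at 34.3, 59.7 and 44.6 in LSK cells, against 9.78, 7.18 and 11.7 in myeloid progenitors, which lie near background (adjusted p = 0.0686); it was called lower without array 10 or 12. Over all 28 members the median log2 change was 2.37 in wild-type and 1.90 in deficient cells, beside 0.02 and 0.11 over all genes, or 1.85 and 1.62 over the members with a measured or bounded fold.

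**Figure D1:**
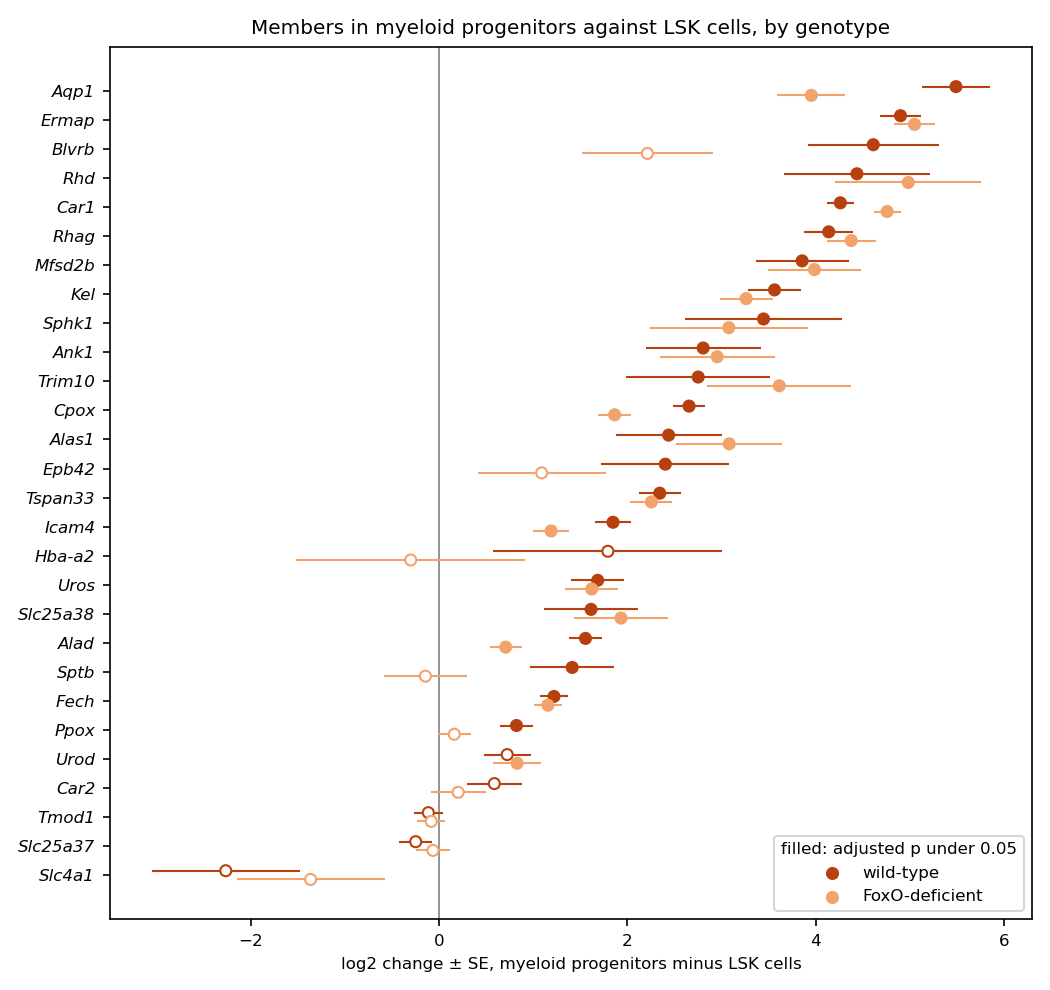
Log2 change from LSK cells to myeloid progenitors for each of the 28 tested members, in wild-type and FoxO-deficient cells, with standard errors of the limma fit (3 arrays per group); filled points had an adjusted p under 0.05. Aqp1, Ermap and Car1 lie far to the right in both genotypes, while Tmod1, Slc25a37 and Slc4a1 lie at or left of 0.

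The promoters of the members were read to show what lies upstream of them, including members that were not tested or not called higher. RefSeq sequence of build GRCm38.p6 was at hand for 34 start sites of 24 members; none was listed for Car1, Car2, Ank1, Fech, Slc4a1 or Slc25a37. The searches, on both strands, were for a GATA motif (GATA with A or T before it and A or G after it), a KLF motif (CCNCNCCC) and a FoxO motif (GTAAACA). In the 100 bases before the start, 8 of the 34 sites held a GATA match (23.5%) beside 10.4% of 32851 sites in the table, 17 held a KLF match (50%) beside 31.4%, and 0 held the FoxO letters beside 1.12%. Starts of 1 member can lie close together and share letters, so sites are not separate genes. The KLF sites came from 13 genes and the GATA sites from 8. Over windows of 300 bases around the start the shares of sites were 50% beside 29.8% for GATA, 73.5% beside 49.5% for KLF and 0 of 34 beside 3.65% for FoxO. A match is a run of letters, not a shown binding site, and no match says only that these letters are not in the window. The genes with an upstream GATA match were Alas2, Cpox, Ermap, Icam4, Kel, Rhag, Rhd and Uros. The 5 membrane genes among them are printed first, then the housekeeping Alas1 and the erythroid Alas2 for contrast, and Tspan33, whose FoxO effect was the largest to pass among the 28 members. Each line gives the 100 bases before the start, 5′ to 3′ on the gene's strand, with GATA and KLF matches in capitals. A match on the other strand appears as its reverse complement (TTATCA for TGATAA), and overlapping matches run together.
Ermap (chr4:119189996-119190095, - strand): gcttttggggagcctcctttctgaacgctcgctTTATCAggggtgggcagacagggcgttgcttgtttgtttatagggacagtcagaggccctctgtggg
Rhd (chr4:134864436-134864535, + strand): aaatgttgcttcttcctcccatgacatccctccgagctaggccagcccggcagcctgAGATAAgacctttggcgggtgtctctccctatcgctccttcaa
Rhag (chr17:40811049-40811148, + strand): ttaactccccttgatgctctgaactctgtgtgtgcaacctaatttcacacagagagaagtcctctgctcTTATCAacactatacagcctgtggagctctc
Kel (chr6:41704326-41704425, - strand): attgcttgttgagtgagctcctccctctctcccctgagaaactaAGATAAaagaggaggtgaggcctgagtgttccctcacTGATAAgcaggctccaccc
Icam4 (chr9:21029332-21029431, + strand): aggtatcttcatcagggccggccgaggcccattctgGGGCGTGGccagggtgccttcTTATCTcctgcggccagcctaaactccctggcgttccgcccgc
Alas1 (chr9:106247955-106248054, - strand): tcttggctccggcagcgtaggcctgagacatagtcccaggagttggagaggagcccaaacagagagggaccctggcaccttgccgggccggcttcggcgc
Alas2 (chrX:150547317-150547416, + strand): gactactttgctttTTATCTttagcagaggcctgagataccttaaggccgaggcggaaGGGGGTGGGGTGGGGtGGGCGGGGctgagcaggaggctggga
Tspan33 (chr6:29694114-29694213, + strand): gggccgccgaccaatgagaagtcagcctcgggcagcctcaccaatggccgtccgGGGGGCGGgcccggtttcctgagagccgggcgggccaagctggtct
The GATA match begins at position -67 from the start in Ermap, -43 in Rhd, -31 in Rhag, -43 in Icam4 and -86 in Alas2, and Kel has matches at -56 and -19. The capitals of Alas2 after its GATA match are 4 KLF matches, some of which overlap, and that of Tspan33 is 1 KLF match. The first of the 2 starts listed for Alas1 has neither, and the other, not printed, has a KLF match at -47.

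In myeloid progenitors, most members were dimmer in FoxO-deficient than in wild-type cells, and few of the differences passed the test. Of 28 members, 26 had a negative log2 change, 2 were called lower, Tspan33 and Alad, and 0 higher, beside 1.09% of all genes called lower, 0.757% higher and 1.84% in either direction. On 19 of 28 members all 3 deficient arrays lay below all 3 wild-type arrays, beside 12.6% of all genes, and on 0 they lay above, beside 18.2%. The median log2 change was -0.57 over the members and 0.04 over all genes, and 46.2% of all genes had a negative change. Of 38 kept probe sets of members that were above background on all 3 arrays of a myeloid progenitor group, 34 were lower in deficient cells. The 4 others were both probe sets of Alas1, that of Slc25a37 and the dimmer of Mfsd2b. In bulk RNA, fewer cells of a type and less RNA per cell cannot be told apart.

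Both calls depend on single arrays. Without array 7, 9, 10 or 12 neither gene was called, and without array 6, 8 or 11 Tspan33 alone was. Wild-type LSK array 2 is in neither group but enters the shared estimate of the spread, and without it 6 members were called lower, Alad, Aqp1, Blvrb, Car1, Fech and Tspan33, beside 3.39% of all genes. The 26 negative signs were the same number under the median and the 75th percentile scaling.

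**Figure D2:**
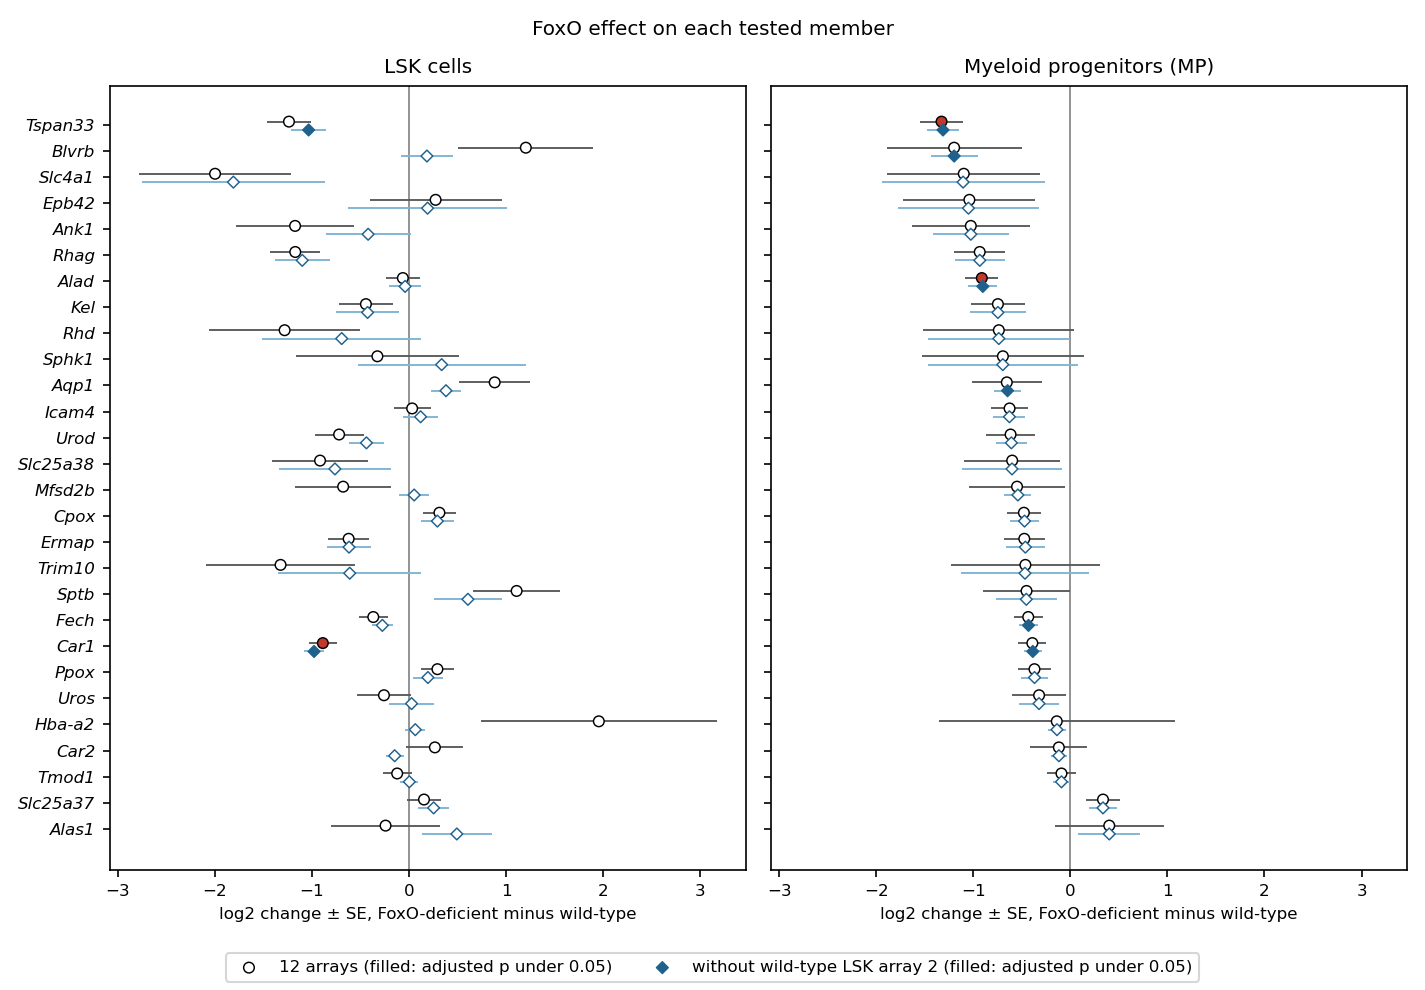
Log2 change from wild-type to FoxO-deficient cells for each of the 28 tested members, in LSK cells (left) and myeloid progenitors (right), with standard errors of the limma fit. Circles are the fit to 12 arrays, diamonds the fit without wild-type LSK array 2, and filled symbols had an adjusted p under 0.05; in myeloid progenitors 26 of 28 circles lie left of 0.

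Along the heme pathway the first enzyme and the later ones differed in sign in myeloid progenitors. Alas1, the housekeeping aminolevulinate synthase, read 106, 275 and 207 in wild-type and 220.0, 242 and 262 in deficient cells on its brighter probe set, which overlap (log2 change 0.40 ± 0.56, adjusted p = 0.883). Its other probe set read 148, 135 and 141 against 249.3, 254 and 233, with every deficient array above every wild-type array, and did not pass either (0.79 ± 0.33, adjusted p = 0.387 over all probe sets). Alas2, the erythroid form, is listed between 0.883 and 10.0 on all 12 arrays and was not tested.

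Alad, which joins a pair of aminolevulinate molecules into porphobilinogen, fell 1.88-fold in deficient myeloid progenitors. It read 673, 564 and 522 on the wild-type arrays and 309.8, 309 and 311 on the deficient arrays (log2 change -0.91 ± 0.17, adjusted p = 0.0290). The lowest wild-type array is well above the deficient arrays, which lie close together. A dimmer Alad probe set read 60, 28.9 and 37.0 against 21.0, 19.4 and 18.8, again without overlap (-1.02 ± 0.50, adjusted p = 0.480).

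The 5 enzymes after it were each lower on all 3 deficient arrays without being called. Uros, which closes the porphyrin ring, read 156, 151 and 191 against 136, 148 and 114 (log2 change -0.32, adjusted p = 0.761). Urod, which removes carboxyl groups from the ring, read 1381, 1538 and 1109 against 866, 814 and 929 (-0.62, adjusted p = 0.332), and its second probe set 571, 529.9 and 496 against 383.5, 355 and 333. Cpox, the coproporphyrinogen oxidase of mitochondria, read 637, 693 and 704 against 475, 507 and 477 (-0.48, adjusted p = 0.263). None of these groups overlap. Ppox, which makes protoporphyrin, read 129, 129 and 124 against 111, 91.8 and 93.9 (-0.37, adjusted p = 0.414), while its dimmer probe set overlapped. Fech, the ferrochelatase that inserts iron, read 1122, 1109 and 1080 against 792, 855 and 805 (-0.43 ± 0.15, adjusted p = 0.234, and 0.0351 without wild-type LSK array 2). A pair of other kept Fech probe sets gave -0.38 and -0.48. Of the 7 tested enzymes, 6 were negative, 6 had no overlap and 1 was called.

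**Figure D3:**
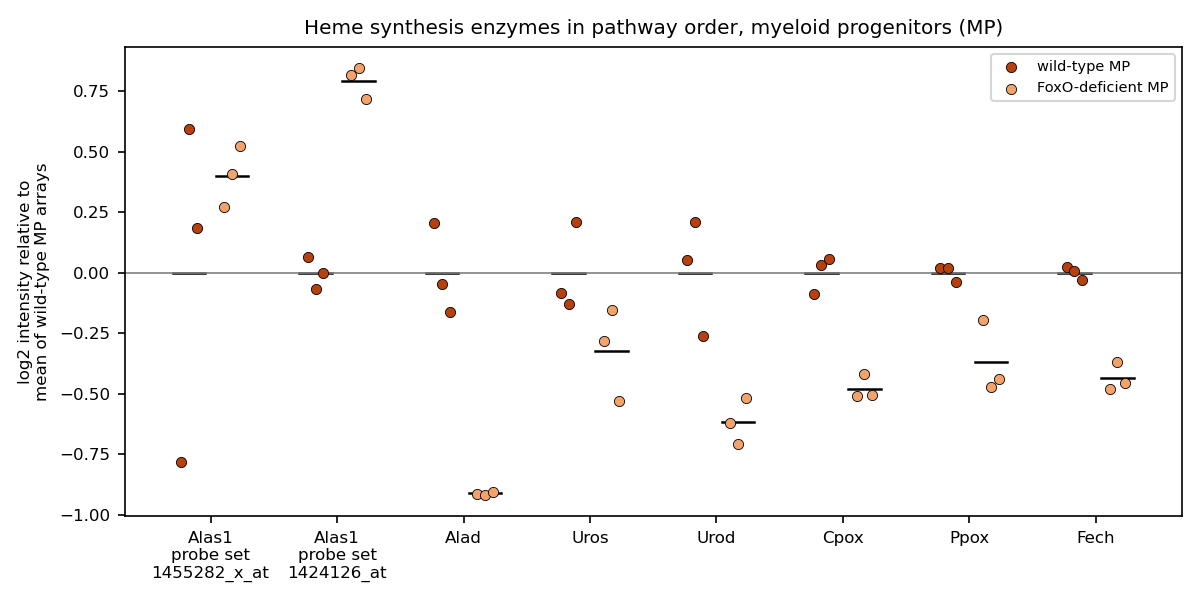
Log2 intensity of the tested heme enzymes in myeloid progenitors, in pathway order, relative to the mean of the wild-type arrays; points are arrays, bars are group means, and Alas1 is shown by both of its probe sets. From Alad to Fech every deficient point lies below the wild-type points of its enzyme, and on the second Alas1 probe set every deficient point lies above them.

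In LSK cells no heme enzyme was called for a FoxO effect, and 5 of 7 were negative, or 3 of 7 without array 2. Urod read 620, 1181 and 716 in wild-type and 587, 468 and 426 in deficient LSK cells, with the highest value on array 2 (log2 change -0.72, or -0.44 without it, adjusted p = 0.340 and 0.294). Fech read 477, 537 and 415 against 349, 410.5 and 345 (-0.37, adjusted p = 0.403). Alad, which was called in myeloid progenitors, read 172, 205 and 222 against 167, 221 and 185 in LSK cells (-0.06 ± 0.17). The difference between its effects in the cell types was -0.85 ± 0.24 and did not pass (adjusted p = 0.199). Averaged over both cell types, Urod, Fech and Alad were not called with 12 arrays (adjusted p = 0.111, 0.102 and 0.0894), and all of them were without array 2 (0.0394, 0.0300 and 0.0452).

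The carriers and users of heme did not move as a group. Slc25a37 read 99.3, 118 and 108 in wild-type and 142, 156 and 116 in deficient myeloid progenitors, which overlap (log2 change 0.34, adjusted p = 0.485). Slc25a38 read 31.7, 42.3 and 42.6 against 23.5, 26.1 and 27.0, without overlap (-0.60, adjusted p = 0.738). Blvrb read 338, 231 and 251 against 122.5, 131 and 101, also without overlap. Its log2 change of -1.2 ± 0.70 was not called (adjusted p = 0.547), and passed without wild-type LSK array 2 (adjusted p = 0.0210). In LSK cells Blvrb read 16.7, 2.68 and 30.1 against 26.9, 22.2 and 27.4, with array 2 the lowest of all.

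The alpha-globin probe sets gave different pictures. The 1 probe set paired with Hba-a2 alone was level in myeloid progenitors; which transcript it measures was not checked, since probe sequences were not used here. It read 592, 584 and 596 in wild-type and 508, 519 and 585 in deficient myeloid progenitors, and 621, 12.4 and 644 against 716, 645 and 627 in LSK cells. The value of 12.4 is array 2, which makes the LSK log2 change 1.95 with it and 0.06 without it. Another 3 probe sets, which the annotation pairs with both Hba-a1 and Hba-a2, were lower in deficient cells of both types. They stand outside the fit by gene and were tested, after their values had been seen, in a fit over all 31779 kept probe sets.

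The first of them, 1428361_x_at, read 65.3, 71.6 and 64.0 in wild-type LSK cells and 14.7, 12.9 and 17.1 in deficient ones, a 4.52-fold fall (log2 change -2.18 ± 0.23, adjusted p = 0.00626) that passed without any 1 of the 12 arrays. In myeloid progenitors it fell from 73.6, 54.9 and 64.8 to 25.6, 29.9 and 17.9 (-1.42 ± 0.23, adjusted p = 0.0151), and failed to pass without array 7, 9, 10 or 12 (adjusted p of up to 0.0713). The lowest wild-type array stands above the highest deficient array in both cell types. On 1452757_s_at the LSK arrays read 64.2, 116 and 55.4 against 15.2, 10.8 and 20.5 and the myeloid progenitor arrays 107, 94.2 and 85.0 against 46.7, 43.4 and 22.3 (adjusted p = 0.0618 and 0.117). On 1417714_x_at they read 51.0, 101 and 34.9 against 7.47, 16.7 and 8.19, and 114, 94.3 and 87.4 against 29.7, 49.8 and 33.4 (adjusted p = 0.0779 and 0.174). Neither of these probe sets passed in a single cell type with 12 arrays, and neither had overlapping groups. Without wild-type LSK array 2 both passed in myeloid progenitors (adjusted p = 0.0401 and 0.0481). Averaged over both cell types all 3 were called (adjusted p = 8.25e-04, 0.0119 and 0.0176), the last of them not without array 4, 6, 7, 10 or 12 (up to 0.0588). Of all kept probe sets, 0.0692% were called lower in LSK cells, 1.04% in myeloid progenitors and 0.617% on average.

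**Figure D4:**
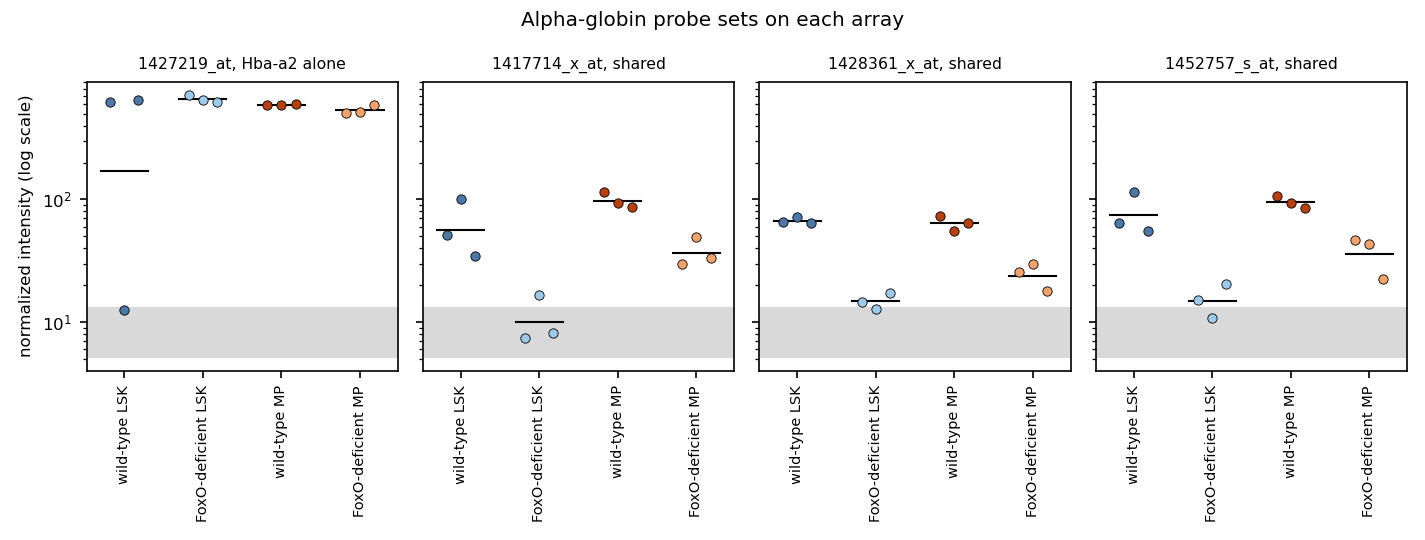
Normalized intensity (log axis) of the alpha-globin probe sets on each of the 12 arrays, by group; bars are group means and the grey band spans the background limits of the arrays. The probe set of Hba-a2 alone is level apart from wild-type LSK array 2 at 12.4, and on the 3 probe sets shared by Hba-a1 and Hba-a2 all deficient arrays lie below all wild-type arrays of their cell type.

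Membrane skeleton genes gave no call for FoxO. Ank1 read 112, 117 and 102 in wild-type and 41.6, 54.3 and 70.0 in deficient myeloid progenitors, without overlap (log2 change -1.03 ± 0.61, adjusted p = 0.561). In LSK cells it read 8.78, 44.6 and 9.99 against 7.57, 3.67 and 12.3, and the high wild-type value is array 2. Tmod1 was level, at 989, 919 and 940.0 against 886.5, 925 and 862 in myeloid progenitors. Sptb and Epb42 lay near background in both groups. Epb42 read 8.55, 23.4 and 21.0 in wild-type and 9.40, 5.25 and 9.81 in deficient myeloid progenitors, which overlap. All 4 tested genes had a negative log2 change in myeloid progenitors, and 2 of 4 in LSK cells.

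Membrane transport and blood group genes were lower in deficient myeloid progenitors on all 7 tested members, with no overlap for 6 and a call for 0; the adjusted p lay between 0.126 and 0.822. Rhag read 113, 139 and 105 in wild-type and 71.1, 65.0 and 51.6 in deficient cells (log2 change -0.93 ± 0.26, adjusted p = 0.126). Kel read 101, 96.0 and 128 against 65.8, 70.7 and 56.5 (-0.75 ± 0.28, adjusted p = 0.286), and Icam4 56.2, 50.8 and 39.7 against 33.1, 33.8 and 27.6 (-0.63 ± 0.19, adjusted p = 0.164). For each of them the lowest wild-type array exceeds the highest deficient one. Aqp1 read 576, 533 and 568 against 349.6, 344 and 371 (-0.65 ± 0.36, adjusted p = 0.518, and 0.0287 without wild-type LSK array 2). Ermap read 1751, 1789 and 1694 against 1300.5, 1193 and 1277 (-0.47 ± 0.21, adjusted p = 0.387), and Rhd 177, 199 and 214 against 125, 97.8 and 134 (-0.74 ± 0.78, adjusted p = 0.822). Ermap and Rhd did not overlap either; the standard error of each gene is shared over all 4 groups, and Rhd scattered from 1.2 to 20.5 in LSK cells.

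In LSK cells Rhag, Kel and Rhd lay at or near background, while Ermap, Icam4 and Slc4a1 cleared it on all 6 arrays and Aqp1 on 5. Rhag read 9.05, 7.38 and 4.55 in wild-type and 3.45, 2.77 and 2.78 in deficient cells (adjusted p = 0.121), levels for which no size of change is given. Averaged over both cell types it was called lower (adjusted p = 0.0216), with this LSK difference at background as a part of the average. It is a call that was lost without array 5, 6, 7, 8, 11 or 12, with an adjusted p of up to 0.0647. Ermap was above background and read 58.2, 58.9 and 58.1 against 46.0, 45.6 and 26, without overlap (-0.62 ± 0.21, adjusted p = 0.332). Slc4a1 read 34.3, 59.7 and 44.6 against 10.8, 10.9 and 12.1, the largest log2 change of a member in LSK cells (-2.0 ± 0.79, adjusted p = 0.392). A second Slc4a1 probe set read 19.8, 27.6 and 31.4 against 15.7, 13.4 and 13.2, also without overlap. In myeloid progenitors both lay near background, the first at 9.78, 7.18 and 11.7 against 16.7, 4.96 and 1.01. Aqp1 had the opposite sign in LSK cells, at 15.8, 6.18 and 19.8 against 22.3, 19.5 and 27.6 (0.88 ± 0.36, or 0.38 without array 2).

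The difference between the FoxO effects in the cell types was called for 0 of 28 members, beside 0.859% of all genes, 0.291% higher and 0.568% lower (limma; 8 members had an unadjusted p under 0.05). Without wild-type LSK array 2 it was called for 1 member, Aqp1 (log2 difference -1.03, adjusted p = 0.0439), beside 1.62% of all genes called lower. The call is on the difference alone: the LSK change of Aqp1 did not pass (adjusted p = 0.409, and 0.309 without array 2), and its LSK groups overlap near background. Blvrb and Hba-a2 had the largest differences with 12 arrays, -2.40 ± 0.99 and -2.09 ± 1.72, and without array 2 these were -1.38 and -0.20. Sptb had a difference of -1.56 ± 0.63 near background.

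Of the carbonic anhydrases, which convert carbon dioxide and bicarbonate, Car1 fell in deficient LSK cells and Car2 was not called. Car1 read 184, 154 and 187 in wild-type and 92.8, 85.6 and 105 in deficient LSK cells, 1.85-fold lower (log2 change -0.89 ± 0.14, adjusted p = 0.0457). Its lowest wild-type value is array 2, and without that array it passed too (-0.98, adjusted p = 0.00640). Leaving out any other single array ended the call, with an adjusted p of up to 0.214 without array 5. In myeloid progenitors Car1 read 3315, 3274 and 3448 against 2483, 2599 and 2570, without overlap (-0.39 ± 0.14, adjusted p = 0.271, and 0.0404 without array 2). Averaged over both cell types Car1 was called lower (-0.64 ± 0.10, adjusted p = 0.0144) and passed in 11 of 12 fits, with 0.0513 without array 4. Car2 read 3575, 1518 and 3592 against 3274, 3176 and 3260 in LSK cells and 3823, 4325.5 and 3988 against 3907, 3777 and 3496 in myeloid progenitors, which overlap; the low value is array 2.

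Car1 was the 1 member of 28 called in LSK cells, beside 0.146% of all genes called lower, 0.124% higher and 0.269% in either direction. On 7 of 28 members all deficient LSK arrays lay below all wild-type arrays, beside 9.06% of all genes, and on 0 above, beside 7.77%. In LSK cells 18 of 28 members were negative with a median of -0.29, and 14 of 28 with a median of -0.02 without array 2. Without that array 2 members were called, Car1 and Tspan33, beside 0.401% of all genes called lower.

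The sphingosine-phosphate genes were both lower in deficient myeloid progenitors without a call. Sphk1 read 73.0, 58.9 and 93.4 in wild-type and 53.7, 42.9 and 41.1 in deficient cells (log2 change -0.69 ± 0.84, adjusted p = 0.857). Mfsd2b read 626, 617 and 660 against 444, 427 and 429 (-0.55 ± 0.50, adjusted p = 0.773, and 0.0518 without wild-type LSK array 2). Neither pair of groups overlaps. The dimmer Mfsd2b probe set read 21.3, 41.8 and 31.3 against 42.3, 27.2 and 29.8, which overlap (0.10). In LSK cells Mfsd2b was level apart from array 2, at 30.4, 121 and 22.9 against 25.1, 32.6 and 25.1.

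Tspan33 had the largest FoxO effect of any called member, and its log2 change was -1.33 in myeloid progenitors and -1.24 in LSK cells. In myeloid progenitors it fell from 847, 676 and 724 to 306, 323 and 266, or 2.51-fold (log2 change -1.33 ± 0.22, adjusted p = 0.0158). In LSK cells it read 145, 194 and 113 against 73.8, 61.9 and 52.9 (-1.24 ± 0.22, adjusted p = 0.0855), and without array 2, its highest value, it was called (-1.03, adjusted p = 0.0484). In neither cell type did the groups overlap. The difference between the effects was -0.09 ± 0.32 (adjusted p = 0.945). Averaged over both cell types its log2 change was -1.28 ± 0.16 (adjusted p = 0.00373), and it passed in all 12 fits without 1 array.

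Another 3 Tspan33 probe sets had the same sign. The brighter of them read 697, 635 and 604 against 283, 290.5 and 241 in myeloid progenitors (-1.25 ± 0.19, adjusted p = 0.0103 over all probe sets) and 109, 139.8 and 132 against 58.4, 54.7 and 42.8 in LSK cells (adjusted p = 0.0431). The next gave -1.15 and -0.50, and the dimmest -1.25 and -1.02, in myeloid progenitors and LSK cells. Trim10 read 26.2, 21.6 and 29.6 against 23.6, 11.2 and 24.2 in myeloid progenitors, which overlap (-0.46 ± 0.77), and lay at background in LSK cells.

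Over both cell types together, 3 members were called lower and 0 higher: Tspan33, Rhag and Car1, or 2 of 25 without the 3 that passed the filter only through myeloid progenitor arrays, Rhag among them, beside 0.961% of all genes called lower, 0.896% higher and 1.86% in either direction. Without wild-type LSK array 2 there were 6, Alad, Car1, Fech, Rhag, Tspan33 and Urod, beside 2.97% of all genes. Ank1, near background in most LSK arrays, had a mean change of -1.10 ± 0.43 that was not called (adjusted p = 0.288), and neither was that of Slc4a1 (-1.55 ± 0.56, adjusted p = 0.251), which lay near background in myeloid progenitors. The comparisons within each cell type enter this mean, so it is no separate evidence.

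**Figure D5:**
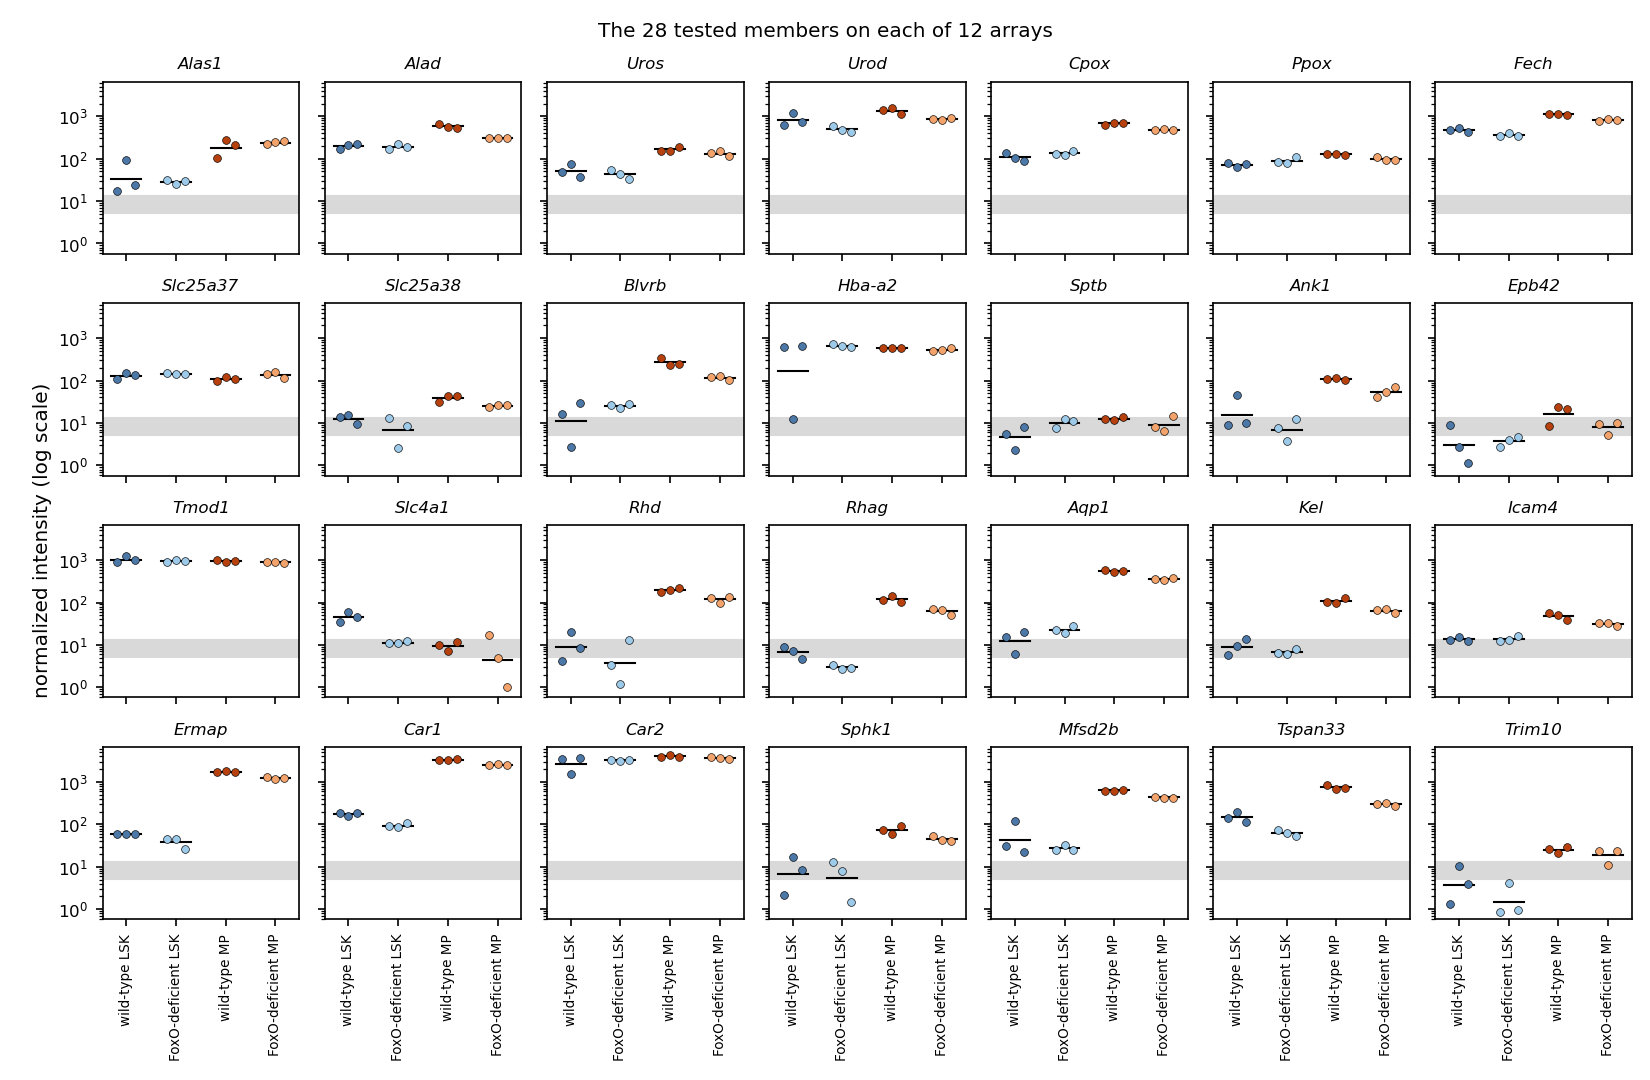
Normalized intensity (log axis) of each of the 28 tested members on the 12 arrays, in 4 groups of 3; bars are group means and the grey band spans the background limits from 5.14 to 13. Ermap, Car1 and Aqp1 rise steeply from LSK cells to myeloid progenitors, and in Hba-a2 and Blvrb wild-type LSK array 2 stands far below the other arrays of its group.

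Other genes of the same pathways were taken from a list of 53, of which 39 were tested. In myeloid progenitors 31 of 39 had a negative change in deficient cells, and on 20 all deficient arrays lay below, beside 12.6% of all genes. None passed (0 of 39, limma; 5 had an unadjusted p under 0.05), beside 1.84% of all genes called; without wild-type LSK array 2, 4 were called lower, beside 3.39%. In LSK cells 20 of 39 had a negative change and 0 were called (limma; 6 with an unadjusted p under 0.05), beside 0.269% of all genes. Averaged over both cell types 4 were called lower, beside 0.961%. Hbb-b2, an adult beta-globin gene, read 34.0 to 66.8 in wild-type and 16.6 to 21.6 in deficient LSK cells, and 39.3 to 48.7 and 13.2 to 21.5 in myeloid progenitors (mean log2 change -1.30 ± 0.20, adjusted p = 0.0119). Add2, a beta adducin of the membrane skeleton, read 59.0 to 68.5 against 5.79 to 26.3 in myeloid progenitors and lay near background in LSK cells (-1.91 ± 0.34, adjusted p = 0.0235). Neither gene overlapped in either cell type. Car3, of carbonic anhydrase III, and Aqp9, a water and glycerol channel, had mean changes of -0.70 ± 0.14 and -0.69 ± 0.14 (adjusted p = 0.0320 and 0.0426).

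Not called were Piezo1, a mechanically gated channel, at 16 to 43.1 against 5.59 to 15.9 in LSK cells (-1.36 on the log2 scale, adjusted p = 0.369), and Dmtn, of the actin-bundling protein dematin, with a log2 change of -1.77 in myeloid progenitors (adjusted p = 0.348) near background. Aqp3 and Slc29a1, of a glycerol channel and a nucleoside transporter, had large differences between cell types (-2.60 and -1.63) at dim levels, without passing (adjusted p = 0.472 and 0.611). From LSK cells to myeloid progenitors 9 of the 39 were called higher and 4 lower in wild-type cells, beside 9.95% and 11.5% of all genes, and 6 higher and 3 lower in deficient cells, beside 10.2% and 9.39%.

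Markers of other cells moved with the FoxO comparison in myeloid progenitors, and their part in the results was not tested. Erythroid progenitor markers (5 of 7 tested, all above background on the myeloid progenitor arrays) summed to 4179 to 4555 on wild-type and 3367 to 3552 on deficient arrays. Among them Gata1 read 696 to 756 against 373 to 450.3, Klf1 343 to 362 against 196 to 204, and Epor, the erythropoietin receptor, 54.5 to 73.3 against 29.7 to 37.9, with no overlap and no call (adjusted p = 0.588, 0.261 and 0.219). Tfrc, the transferrin receptor, read 2537 to 2822 against 2376 to 2488. Granulocyte-monocyte progenitor markers (12 of 13 tested) summed to 19373 to 19620.2 against 24167 to 24905, neutrophil markers (9 of 10) to 4567 to 4716 against 6479 to 6776, and megakaryocyte markers (6 of 7) to 401 to 441 against 277 to 336. The groups do not overlap in any of these sums. Sums were also higher without overlap for markers of myeloid progenitors (12807 to 13609.8 against 15093 to 15949) and LSK cells (873 to 917 against 993 to 1187). So were those of B cells (88.4 to 117 against 146 to 185) and T and NK cells (1692 to 1760 against 2292 to 2624). Sums of macrophages, basophils and mast cells, and stromal cells overlapped. A sum follows the brightest genes of its list. That of T and NK cells was mostly Nkg7 (1664 to 1748 against 2267 to 2615). In each group 3 of its 5 genes lay below background on all arrays. The B cell sum was mostly Cd79b (59.8 to 71.6 against 112 to 144). Most of the basophil and mast cell sum (8 of 9 tested) was Gata2, lower without overlap (1247 to 1394 against 999.6 to 1095). The other tested genes of that list had higher means. Among them were Mcpt8 (135 to 156 against 229.5 to 268) and Hdc (207 to 264 against 268 to 312), without overlap. Of the myeloid progenitor markers, Fcgr3 (138 to 166 against 99.5 to 118) and Csf1r (198 to 296 against 124 to 180) were lower without overlap, and the others had higher means. The neutrophil sum was mostly S100a8 and S100a9, and Mmp8 and Mmp9 of that list had lower means. Lower means were also seen for Csf2ra of the granulocyte-monocyte list, Flt3 of the LSK list and Vpreb1 of the B cell list. Immediate-early genes differed too: Fos read 2712 to 3308 against 99.6 to 153 (log2 change -4.64 ± 0.18, adjusted p = 1.34e-06).

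In LSK cells erythroid progenitor markers summed to 1174 to 1600 in wild-type and 1289 to 1450 in deficient cells, which overlap. Most of this sum was Tfrc, at 874 to 1075 against 1059 to 1181. Each other marker tested had a lower mean in deficient cells. Hemgn read 186 to 269 against 174 to 209, which overlap. Gata1 read, from the lowest array to the highest, 57.1, 65.5 and 304 against 42.0, 42.2 and 54.1, Epor and Klf1 lay near background, and the part of these markers in the Car1 and alpha-globin results was not tested. Neutrophil markers summed to 6003 to 8221 against 8587 to 8841, myeloid progenitor markers (8 of 8 tested) to 4820 to 6092 against 6302 to 6480, megakaryocyte markers to 206 to 361 against 366 to 404, and T and NK cell markers (5 of 8, 1 of them above background on all 3 arrays of each group) to 273 to 710 against 871 to 1105. These sums were higher in deficient cells without overlap. The megakaryocyte sum rose mostly through Pf4 (84.3 to 190 against 254 to 280), and Itga2b, Ppbp, Gp9 and Vwf had lower means. Mmp8 and Mmp9 of the neutrophil list and Fcgr3 and Csf1r of the myeloid progenitor list had lower means too. The sum of stromal and endothelial markers (8 of 9) was lower without overlap, at 278 to 327 against 214 to 237. It fell mostly through Col1a2 (50.3 to 154 against 13.6 to 26.7) and Col1a1 (17.7 to 32.7 against 5.65 to 17.2). Kdr also had a lower mean, and Cdh5, Pecam1, Emcn, Col3a1 and Cxcl12 had higher ones. Granulocyte-monocyte progenitor markers overlapped, at 6264 to 8036 against 7542 to 7800.0.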

How the data were processed

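The authors deposited a linear intensity for each probe set and array, from RNA amplified with the NuGEN Ovation system, per the labels' protocols, with the probe-summarising software unnamed in these sources. An offset of 0.6, which is the 10th percentile of the deposited values, was added before taking log2, and quantile normalization followed. Of 45101 probe sets, 34945 carried 1 gene symbol, 932 several and 9160 none, besides 64 controls; 34741 symbols were updated through RefSeq (GRCm38.p6). Probe sets above their array's 40th percentile on at least 3 arrays were kept, and the brightest stood for its gene, leaving 13732 genes. One model with a mean per group (8 residual degrees of freedom) was fitted with limma 3.58.1 in R 4.3.3, with 6 contrasts that share arrays. The script was tested on simulated data.

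The background limit of an array is the highest of 27 bacterial control probe sets. A fold is "at least" where no array of the dimmer group cleared it, and is left out where only 1 of 3 did or both groups lay below. Precision is limited by the number of arrays. The members, lists and the search letters were chosen with earlier results of these data known. Every member was to be named, with values for those called or among the 3 largest changes in a contrast, and pathway genes where called for FoxO or among its 3 largest changes; values of other members are given by role. Alternatives changed the offset, scaling, filter, choice of probe set, samples fitted and weights, or left out each array in turn.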

Additional observations from a re-analysis of the deposited data

How the results depend on the processing

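Counts of members called for a FoxO effect are small and moved with the processing. In LSK cells (1 with the processing described) the count was 3 with an offset of 16 or 32, 2 with the 60th percentile filter, array weights or a trended robust fit, and 0 with median scaling, 75th percentile scaling, no filter, the mean of probe sets or only the groups compared. With each probe set tested it was 1, Tspan33 in place of Car1. In myeloid progenitors (2) it was 6 with an offset of 32, 5 with only the groups compared, 9 with array weights, 1 with no filter and 0 with the mean of probe sets. For the mean of both cell types (3) it was 6 with an offset of 16, array weights or a trended robust fit, 8 with an offset of 32 and 5 with the 60th percentile filter. The difference between cell types (0) was called for 2 members with an offset of 32. Leaving out 1 array gave 0 to 2 calls in LSK cells, 0 to 6 in myeloid progenitors, 2 to 6 for the mean, 0 to 1 for the difference, 17 to 22 between wild-type cell types and 15 to 21 between deficient ones. The causes were not tested. Over the 57 log2 changes of named members, the alternatives that kept all arrays gave 580 values with the same call, 28 that lost it and 8 that gained it. Leaving out 1 array ended the call in 81 of 564 fits of the 47 called changes and gave a call in 2 of 120 fits of the 10 others. None of these changed sign. Counts between cell types stayed within 1.5 times of those reported under the alternatives that kept all arrays. Median scaling moved the median of all genes between deficient cell types to 0.26, from 0.11. A fit of only the groups compared has no form of its own for the mean and the difference. No paired analysis was possible because the titles number the arrays 1 to 12 and no number is shared between groups. Signal at or near background limits the LSK values of several membrane genes, among them Rhag, Kel, Rhd, Ank1, Sptb and Epb42.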
